A study of Mus musculus with 2 samples.

Results

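Sgk1, Ddit4, Tsc22d3, Fkbp5, Per1 and Klf9, 6 genes known for their induction by glucocorticoids or cell stress, were followed in splenic CD8 T cells. They were chosen by symbol, with their values in these libraries already known, and all 6 were found among the 31017 gene symbols of both libraries. The cells came from wild-type C57BL/6J mice. Total CD8 T cells purified from young CD45.1 donors aged 3 months were given to old CD45.2 recipients aged 24 months, and 1 month later viable CD3e+CD8a+ spleen cells were sorted on CD45.1, which marks the transferred young cells, and on CD45.2, which marks the old recipient's own. Both populations had therefore spent the month before sorting in an aged host, and the labels give that host as 25 months old. Each population gave 1 droplet 5' library, so library, age of the cells, transfer and congenic strain cannot be told apart and no difference was tested. The labels do not say how many mice were used, or whether cells of several were pooled.

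Glucocorticoids bind a cytoplasmic receptor encoded by Nr3c1, which is held by HSP90 and its co-chaperones, moves to the nucleus and binds DNA at an inverted repeat called the glucocorticoid response element. Tsc22d3 (GILZ) is a leucine-zipper protein that restrains NF-kB and AP-1, Fkbp5 is a co-chaperone that lowers the receptor's affinity for hormone, and Per1 and Klf9 are a clock repressor and a zinc-finger repressor. Sgk1 is a kinase downstream of PI3K and mTORC2 that phosphorylates FOXO factors and NEDD4 family ligases, and Ddit4 (REDD1) inhibits mTORC1 and also responds to hypoxia and amino acid shortage. In T cells these genes answer to further inputs, so a transcript alone does not show that hormone was acting.

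The sequence in front of the start sites differed between these genes in the motifs it held. RefSeq promoters (GRCm38.p6) were searched over the 250 bases upstream of each start on both strands for the full response element (the arms AGAACA and TGTTCT, 3 bases apart), for the arm TGTTCT anywhere, and for the E-box CACGTG, the CRE TGACGTCA and the FOXO motif TGTTTAC. The full element was present in 3 of 32851 windows, and 1 of those belongs to Sgk1. It lies at chr10:21993701-21993715, in front of an internal start of the gene (chr10:21882184-21999903, plus strand), with its first base 189 bases upstream. Sequence is shown 5' to 3' on the gene's strand, with matches in capitals and only bases outside annotated exons. The first stretch is chr10:21993640-21993889 (plus strand), the second chrX:140600660-140600772 (minus strand) and the third chr10:59951835-59952020 (minus strand).
Sgk1: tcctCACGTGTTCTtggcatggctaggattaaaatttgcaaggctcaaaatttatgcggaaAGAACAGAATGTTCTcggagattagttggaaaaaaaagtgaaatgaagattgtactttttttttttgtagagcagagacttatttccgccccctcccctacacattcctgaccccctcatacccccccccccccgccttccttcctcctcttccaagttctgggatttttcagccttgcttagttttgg
Tsc22d3: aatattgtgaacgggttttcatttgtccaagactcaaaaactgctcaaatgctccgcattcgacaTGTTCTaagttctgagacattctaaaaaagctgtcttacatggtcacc
Ddit4: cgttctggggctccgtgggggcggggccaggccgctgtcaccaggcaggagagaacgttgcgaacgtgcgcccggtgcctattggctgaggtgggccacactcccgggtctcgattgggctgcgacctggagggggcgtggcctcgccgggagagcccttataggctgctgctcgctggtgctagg
The Sgk1 stretch also holds an E-box that overlaps an arm at its distal end. The Tsc22d3 stretch holds the arm alone, a match found in 16.1% of all windows. Ddit4 matched none of these motifs, and its stretch is 69.9% G and C against 44.8% in the Sgk1 stretch. Another Sgk1 window (chr10:21994416-21994665) is 70.4% G and C. Sgk1, Tsc22d3 and Per1 had more than 1 start window and Ddit4 only 1, so the room for a match differed between genes. Among the other members, Fkbp5 (chr17:28399094-28517527) and Per1 (chr11:69095217-69109960) each had an E-box, found in 6.02% of windows, and Klf9 (chr19:23141226-23168134) had the FOXO motif, found in 3.17%. A match is a run of letters and not a shown site of binding, and elements farther from the start were not searched.

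After filtering, 5341 recipient and 7451 donor cells held 38355291 and 58728756 UMIs (unique molecules counted), with medians of 7018 and 7868 per cell. The CD8 T cell markers were all detected, at a summed 5141 and 4778 CPM (UMIs per 1000000 UMIs of the same cells), while CD4 T cell and myeloid markers summed to at most 2.89 CPM. B cell markers summed to 32.9 and 27.7 CPM, and of the 86.5 and 88.2 CPM of 4 NK markers Eomes, which CD8 T cells also express, made up 74.5 and 84.4. The libraries shared 105 barcodes, 55 of them among the kept cells of both. Intervals are 95% exact intervals that cover counting error only.

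Cells were placed in gates by their UMIs of a few other genes. Naive-type cells had at least 1 UMI of Ccr7, the lymph-node homing receptor, at most 1 each of Ccl5 and Ly6c2, and none of Gzmk or Cx3cr1. The remaining gates took cells with at least 2 UMIs of Ly6c2, a memory-associated surface protein, at least 2 of Gzmk, the granzyme of age-associated CD8 T cells, or at least 1 of Cx3cr1, the fractalkine receptor of effector cells. They held 1533, 2323, 1033 and 354 recipient cells and 835, 5255, 1051 and 277 donor cells. Naive-type cells were thus 28.7% of the recipient library and 11.2% of the donor library. A list of 7 naive markers, Ccr7 among them, summed to 2669 and 2740 CPM (recipient and donor) in naive-type cells. It summed to 1867 and 1668 CPM in Ly6c2 cells and to 526 and 505 in Gzmk cells. The Ly6c2 gate thus kept much of the naive marker signal and cannot be read as memory cells alone. The Gzmk and Cx3cr1 gates overlapped, with 61.6% and 65.7% of Cx3cr1 cells also in the Gzmk gate.

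Tsc22d3, Ddit4 and Sgk1 were well detected in these cells, and Fkbp5, Per1 and Klf9 were sparse. With each cell thinned to 3500 UMIs, Tsc22d3 was found in 42.8% of recipient cells (interval 41.4 to 44.2) and 41.5% of donor cells (40.3 to 42.7). Ddit4 was found in 28.0% and 24.2%, and Sgk1 in 21.7% and 22.7%. Fkbp5, Per1 and Klf9 each lay between 1.99% and 2.87%. Cd79a, a B cell gene that these sorted cells should lack, was found in 0.164% and 0.0571% of the same cells, whose median depths were 7337 and 8048 UMIs. All 6 genes were therefore found more often than this B cell gene, which cannot measure stray RNA from the CD8 T cells themselves. The variance over the mean of the thinned counts was 1.40 in both libraries for Tsc22d3, 1.23 and 1.24 for Ddit4 and 1.12 and 1.18 for Sgk1, where independent sampling alone gives 1. Unthinned, the shares were 60.0% and 61.8% for Tsc22d3, 43.5% and 41.9% for Ddit4 and 36.3% and 39.7% for Sgk1.

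Tsc22d3, Sgk1 and Ddit4 followed 3 different orders over the gates. Tsc22d3 was highest in naive-type cells and lowest in Gzmk cells, Sgk1 was lowest in naive-type cells and highest in Cx3cr1 cells, and Ddit4 varied least.

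Tsc22d3 in the recipient was 233.5 CPM (interval 224.7 to 242.6) in naive-type, 179.2 in Ly6c2, 165.9 in Cx3cr1 and 88.8 (81.0 to 97.1) in Gzmk cells. In the donor it was 243.0, 175.6, 156.4 and 108.5 CPM in the same order. The order was thus shared by both libraries, and the Ly6c2 and Cx3cr1 levels were the only neighbours whose intervals overlapped. Gzmk over naive-type was -1.40 on the log2 scale (-1.54 to -1.25) for recipient and -1.16 (-1.30 to -1.02) for donor cells.

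Sgk1 in the recipient was 54.2 CPM (50.0 to 58.7) in naive-type, 77.5 in Ly6c2, 84.7 in Gzmk and 137.7 (121.0 to 156.1) in Cx3cr1 cells. In the donor it was 36.8, 80.7, 91.7 and 136.5 CPM. Naive-type and Cx3cr1 cells stood apart at either end in both libraries, while Ly6c2 (73.7 to 81.6) and Gzmk (77.1 to 92.8) overlapped in the recipient and lay next to each other in the donor (78.1 to 83.4 and 83.7 to 100.3). Cx3cr1 over naive-type was 1.34 (1.13 to 1.56) for recipient and 1.89 (1.61 to 2.17) for donor cells.

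Ddit4 in the recipient was 123.9 CPM in naive-type, 85.9 in Ly6c2, 100.2 in Gzmk and 100.4 in Cx3cr1 cells. In the donor it was 91.2, 82.6, 110.8 and 95.25 CPM. The highest gate was therefore naive-type in the recipient and Gzmk in the donor.

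Fkbp5, Per1 and Klf9 stayed between 4.83 and 12.8 CPM in every gate of both libraries. Their CPM intervals overlapped between gates with 1 exception. The exception was Klf9 in the donor, at 5.66 CPM (3.96 to 7.83) in naive-type, 6.42 (5.71 to 7.20) in Ly6c2 and 11.8 (9.08 to 15.2) in Gzmk cells, where the last lay above both others on 62 UMIs. Log2 ratios over naive-type cells also had intervals above 0 for Fkbp5 (1.14, 0.24 to 1.99) and Klf9 (1.01, 0.06 to 1.89) in donor Cx3cr1 cells. Each of those rests on under 20 UMIs in the Cx3cr1 gate. Per1 in recipient Gzmk cells was 0.59 (0.06 to 1.10). Less the median ratio of all genes, these Fkbp5, Klf9 and Per1 intervals held 0.

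**Figure D1:**
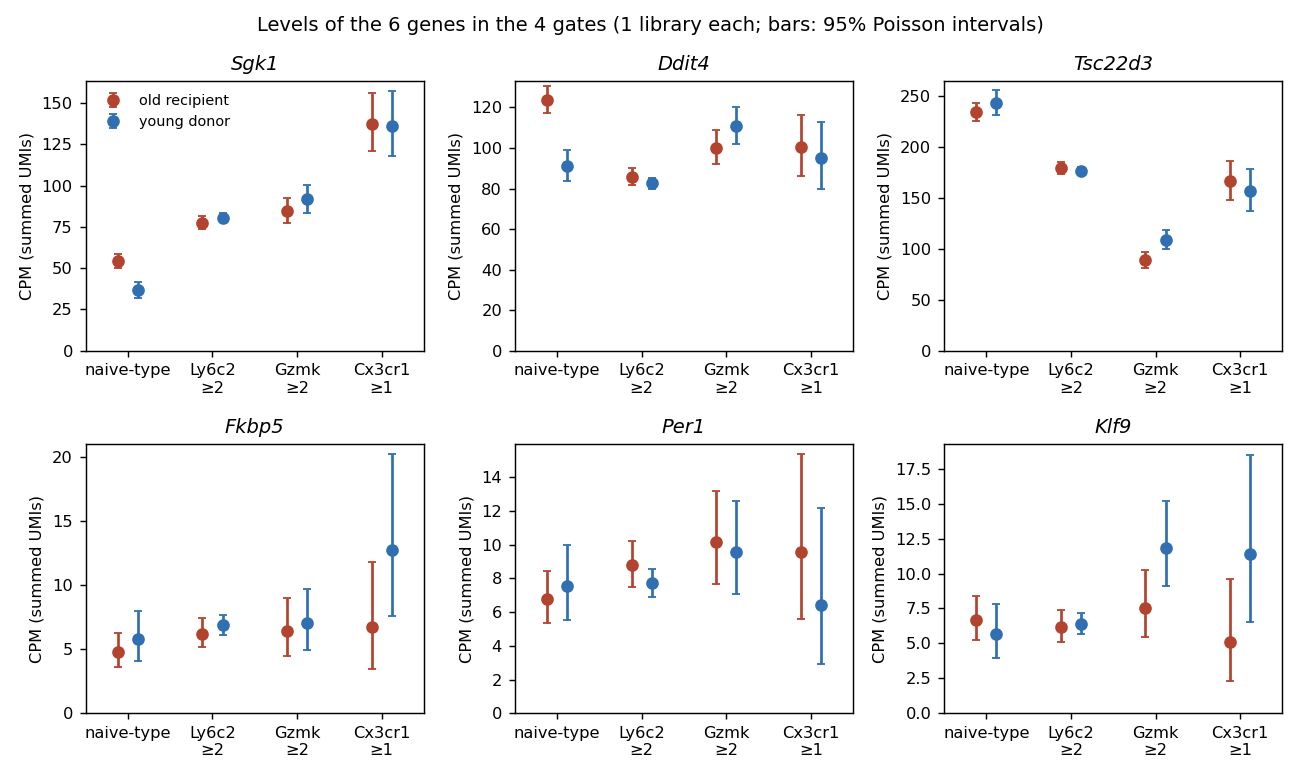
CPM of summed UMIs (vertical axis from 0) of each gene in the 4 gates, for the old recipient (red) and young donor (blue) library, with 95% Poisson intervals. Tsc22d3 stands at 233.5 and 243.0 CPM in naive-type cells and at 88.8 and 108.5 in Gzmk cells, while Sgk1 is highest in Cx3cr1 cells.

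These gate ratios must be read against all genes, since ribosomal protein genes took a median of 44.0% of the UMIs of a naive-type cell in both libraries but 26.8% and 28.1% in Gzmk and 23.8% and 25.7% in Cx3cr1 cells. The median gene was 0.32 higher on the log2 scale in Gzmk than in naive-type cells in each library, and 0.36 and 0.33 higher in Cx3cr1 cells. Relative to that median, Tsc22d3 in Gzmk cells was -1.72 (recipient) and -1.49 (donor). Sgk1 in Cx3cr1 cells was 0.98 and 1.56 above it, and in Gzmk cells 0.32 and 1.00. Ddit4 in Gzmk cells was 0.63 below the median gene in the recipient, but in the donor -0.04 with an interval of -0.21 to 0.13.

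Past 1.5-fold, 2 of the 6 genes were higher and 1 lower in recipient Gzmk than naive-type cells, where 28.3% of all 9148 genes with at least 50 UMIs were higher and 8.32% lower. The 2 were Sgk1 and Per1, and the 1 was Tsc22d3. Tsc22d3 was past 1.5-fold in all 14 other settings, Sgk1 in 9 (lowest 0.27, with totals that leave out large gene families) and Per1, which passed at 1.5002-fold, in 5 (lowest 0.21, with the same totals). In the donor 2 were higher (Sgk1 and Klf9) and 1 lower (Tsc22d3), against 27.4% and 7.01%, and 1 of 14 other settings ended a call (Klf9 at 0.31 in cells with 5000 to 10000 UMIs). In Cx3cr1 cells 1 was higher in the recipient (Sgk1) and none lower, against 32.1% and 9.07%. In donor Cx3cr1 cells 3 were higher (Sgk1, Fkbp5 and Klf9) and 1 lower (Tsc22d3), against 29.8% and 8.68%. Klf9 passed in 11 of 14 other settings and changed sign with overlapping cells left out (-0.27) and in cells with 5000 to 10000 UMIs (-1.43), and Tsc22d3 passed in 12, with -0.27 when overlapping cells were left out. In Ly6c2 cells none passed in the recipient, against 7.56% and 3.01%, and Sgk1 alone was higher in the donor, against 10.6% and 4.71%.

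Separating the overlapping gates gave the lowest Tsc22d3 levels in Gzmk cells outside the Ly6c2 gate. In cells of the Gzmk gate alone, Tsc22d3 was 76.6 CPM in 740 recipient cells and 100.7 in 797 donor cells. In cells of both the Gzmk and Cx3cr1 gates but not the Ly6c2 gate it was 95.6 and 120.3 CPM, and in cells of the Ly6c2 and Gzmk gates without Cx3cr1 117.6 and 129.1. The 45 recipient and 30 donor cells of all 3 gates went against that order, at 167.8 CPM (122.9 to 223.8) and 146.4 CPM (101.4 to 204.5), and their intervals held the Ly6c2-alone levels of 179.1 and 176.0. In cells of the Ly6c2 and Cx3cr1 gates without Gzmk it was 267.9 and 253.9 CPM, as high as in naive-type cells within counting error. In cells of the Cx3cr1 gate alone it was 291.6 CPM (210.2 to 394.2) in 38 recipient cells and 201.6 (145.9 to 271.5) in 54 donor cells. Cx3cr1 cells outside the Gzmk gate thus exceeded Gzmk cells outside the Cx3cr1 gate by 1.74 (1.46 to 2.01) and 1.12 (0.79 to 1.45) on the log2 scale. With overlaps left out, Tsc22d3 in Cx3cr1 over naive-type cells changed from -0.49 to 0.32 in the recipient and from -0.64 to -0.27 in the donor.

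Sgk1 instead was highest in the combinations that held Cx3cr1. It was 123.1 and 142.8 CPM in Gzmk and Cx3cr1 cells, 150.8 and 136.7 in Ly6c2 and Cx3cr1 cells, 153.2 and 142.0 in cells of all 3 gates, and 159.7 and 107.8 in cells of the Cx3cr1 gate alone. It was 70.8 and 76.9 CPM in cells of the Gzmk gate alone, 74.5 and 79.9 in those of the Ly6c2 gate alone and 79.5 and 99.6 in those of both. The donor 107.8 CPM came from few cells and lay close to the donor 99.6 CPM, so it was not set apart from that level. Leaving out cells in both gates, Cx3cr1 over Ly6c2 cells was 0.78 (0.51 to 1.04) and 0.75 (0.49 to 1.00), or 0.45 and 0.44 above the median gene of the same comparison. Ddit4 showed a smaller contrast, at 104.2 and 117.7 CPM in the Gzmk gate alone against 84.6 and 82.1 in the Ly6c2 gate alone, whose intervals did not overlap in either library. For all Gzmk cells outside the Ly6c2 gate over Ly6c2 cells outside the Gzmk gate, Ddit4 relative to the median gene was -0.08 (-0.23 to 0.07) in recipient and 0.19 (0.06 to 0.33) in donor cells, so the recipient contrast was no larger than that of the median gene. In the Cx3cr1 gate alone, 22 recipient and 12 donor UMIs gave 152.7 and 56.3 CPM.

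**Figure D2:**
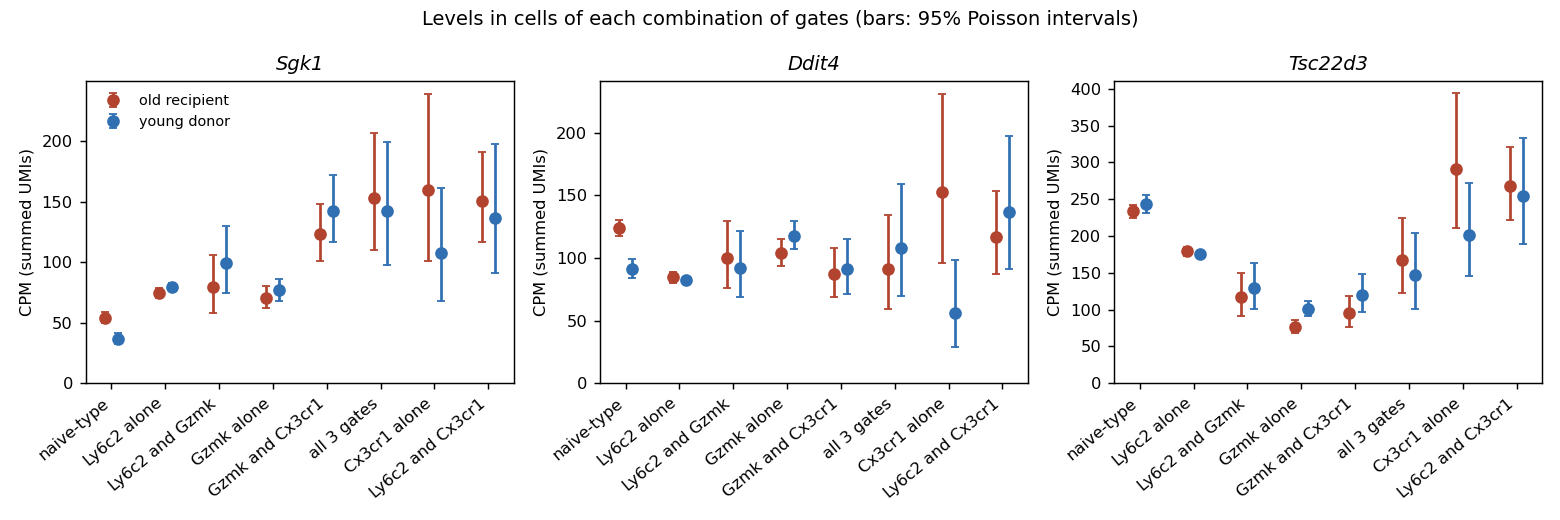
CPM (from 0) of Sgk1, Ddit4 and Tsc22d3 in naive-type cells and in each combination of the Ly6c2, Gzmk and Cx3cr1 gates, with 95% Poisson intervals. Among combinations with Gzmk, Tsc22d3 reaches at most 129.1 CPM except in cells of all 3 gates (167.8 and 146.4), and the lowest Sgk1 level of any combination with Cx3cr1 is 107.8 CPM.

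The same contrasts appeared at matched depth. In cells thinned to 3500 UMIs, mean Tsc22d3 was 0.731 UMIs per recipient cell without Gzmk, 0.614 with 1 Gzmk UMI, 0.314 with 2 or 3 and 0.275 with 4 or more. In the donor the means were 0.670, 0.553, 0.345 and 0.317. Mean Sgk1 was 0.248 in recipient cells without Cx3cr1 and 0.511 with 1 UMI, and 0.271 and 0.543 in the donor. Along Ly6c2, Sgk1 was 0.233 without Ly6c2 and 0.324 with 8 or more UMIs in the recipient, and 0.232 and 0.327 in the donor.

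Pairs of the 6 genes showed next to no co-variation from cell to cell. Pearson r of log counts was computed over 4868 recipient and 7010 donor cells thinned to 3500 UMIs. The points within a library share their library, and counts of a cell also share its total and its ribosomal content. All 15 pairs lay between -0.03 and 0.03 for recipient and between -0.05 and 0.03 for donor cells. Sgk1 with Ddit4 gave 0.012 and 0.021, and 314 recipient and 409 donor cells held both, against 296.4 and 384.0 if the detections were independent. Ddit4 with Tsc22d3 gave -0.021 and -0.052, and Sgk1 with Tsc22d3 -0.019 and -0.040. In counts this sparse a correlation of that size is no finding.

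Ddit4 with Tsc22d3 gave -0.085 within recipient and -0.078 within donor naive-type cells, the lowest of the 15 pairs there in both libraries. Tsc22d3 was found in 46.4% of the recipient naive-type cells with Ddit4 and 53.5% of those without, and in 48.6% and 54.4% of donor cells. Mean Ddit4 in recipient naive-type cells was 0.493, 0.423, 0.354 and 0.326 UMIs in cells with 0, 1, 2 and at least 3 Tsc22d3 UMIs. In donor cells it was 0.358, 0.313, 0.352 and 0.127, the last in 63 cells. Ddit4 was thus lower with each step of Tsc22d3 among recipient cells but not among donor cells. The sign also differed in Gzmk cells, where r was 0.050 in recipient and -0.070 in donor cells. In the small gates 4 values passed 0.1 in size, among them Ddit4 with Per1 (0.185 over 246 recipient Cx3cr1 cells) and Per1 with Klf9 (0.137 over recipient Gzmk cells).

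For Tsc22d3, Ddit4 and Sgk1 the highest r with other genes were larger than those among the 6, although abundance, which limits r in sparse counts, differs between genes. Over 5100 genes found in at least 5% of the thinned cells of both libraries, Tsc22d3 was nearest to Ccr7 (r 0.21 in the recipient and 0.17 in the donor), Il7r (0.13 and 0.14), Klf2 (0.17 and 0.13), Igfbp4 (0.13 and 0.11) and Tpt1 (0.10 and 0.10). Ccr7 also defines the naive-type gate, Il7r encodes the IL-7 receptor, and Klf2 is a quiescence factor. Its lowest r were with the actin genes Actb (-0.20 and -0.21) and Actg1 (-0.19 and -0.19) and with the actin-binding Pfn1 (-0.20 and -0.18). Ddit4 was nearest to Actb (0.11 and 0.11), Cd52 (0.11 and 0.085), Actg1 (0.081 and 0.104), Emp3 (0.078 and 0.070) and Pfn1 (0.069 and 0.081), and lowest with Il7r (-0.065 and -0.062). Tsc22d3 and Ddit4 thus lay on opposite sides of the same actin genes and of Il7r.

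That opposition was also present inside naive-type cells. Tsc22d3 there gave 0.25 and 0.17 with Klf2, 0.14 and 0.22 with Il7r and -0.20 and -0.26 with Actb. Ddit4 gave -0.12 and -0.095 with Klf2, -0.097 and -0.12 with Il7r and 0.15 and 0.20 with Actb.

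Sgk1 was nearest to S100a6 (0.115 and 0.133), the chemokine Ccl5 (0.112 and 0.142), the granule protein gene Nkg7 (0.109 and 0.093), Lgals1 (0.096 and 0.083) and Actb (0.080 and 0.084), and lowest with Eef1a1, Igfbp4 and Ccr7. These r were taken over all cells, whose gates differ in Sgk1. Within gates the highest r of Sgk1, as the lower of both libraries, was 0.078 (naive-type) and 0.086 (Ly6c2). In the order of genes by the lower of both r over all cells, Ddit4 stood at rank 783 of 5100 for Sgk1 and Tsc22d3 at rank 5062. For Tsc22d3, Sgk1 stood at 4669 and Ddit4 at 4898. The highest r of any gene was 0.040 for Fkbp5 (Gnb1, then Aes, Stk38, Kdm6a and S100a4), 0.032 for Per1 (Parp2, then Glod4, Ash1l, Cnot1 and Supt6) and 0.037 for Klf9 (Rgs1, then Hnrnph1, Glul, Dck and Malat1), taking the lower of both libraries. In counts this sparse these values are no finding.

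**Figure D3:**
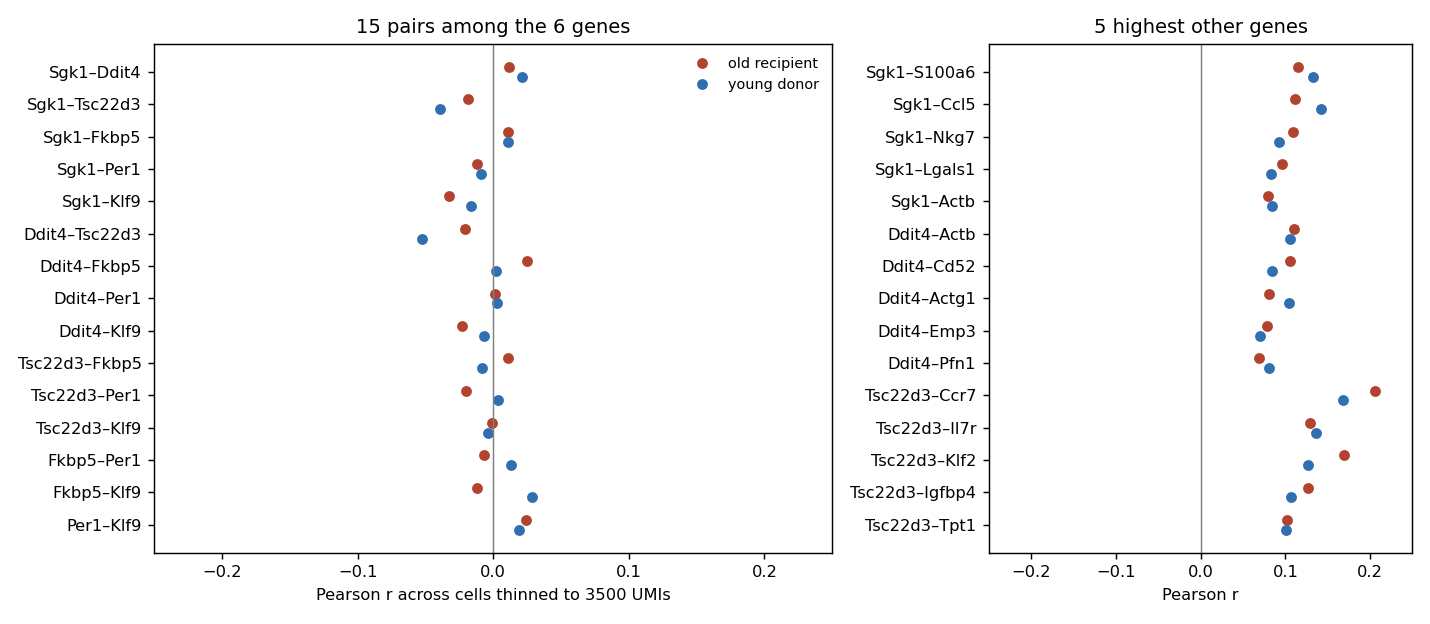
Pearson r across thinned cells (horizontal axis) for the 15 pairs among the 6 genes (left) and for the 5 nearest other genes of Sgk1, Ddit4 and Tsc22d3 (right), in the recipient (red) and donor (blue). No pair of the 6 is beyond 0.1. Tsc22d3 with Ccr7, the highest of 5100 ranked genes, reaches 0.21.

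The ribosomal share of a cell gave r with Sgk1 and Tsc22d3 of similar size to that of several of their nearest genes, and depth mostly gave less. With the total UMIs of a cell, Sgk1 gave r -0.097 for recipient and -0.030 for donor cells, and -0.19 within recipient Cx3cr1 cells. Tsc22d3 gave -0.0078 and 0.010 with total UMIs over all cells, and -0.11 and -0.086 within naive-type cells. With the ribosomal share of a cell, Tsc22d3 gave r 0.13 and 0.11 and Sgk1 -0.12 and -0.089. With the mitochondrial share Tsc22d3 gave 0.093 and 0.067, and with a sum of 20 immediate early and dissociation genes every member lay between -0.03 and 0.03. The part of depth and ribosomal content in these correlations was not tested. Nr3c1 itself gave r between -0.02 and 0.02 with every member.

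Between the libraries the members differed little over all cells, with the clearest contrasts inside naive-type cells. None of the 6 passed 1.5-fold in either direction over all cells, where 4.34% of 11154 genes were at least 1.5-fold higher in the recipient and 2.77% higher in the donor. Ddit4 was 102.3 CPM in recipient and 87.1 in donor cells (log2 ratio 0.23, 0.17 to 0.29). Sgk1 was 70.9 and 76.0 CPM (-0.10, -0.17 to -0.03), and Tsc22d3 185.1 and 177.0 (0.06, 0.02 to 0.11). The median gene stood at 0.04. The intervals of Fkbp5 (5.89 and 6.90 CPM), Per1 (8.47 and 7.95) and Klf9 (6.91 and 6.96) held 0.

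In naive-type cells Sgk1 was 54.2 CPM (recipient) and 36.8 CPM (donor), with a log2 ratio of 0.56 (0.34 to 0.78). At matched depth Sgk1 was found in 17.0% of recipient (15.1 to 19.0) and 11.7% of donor (9.59 to 14.1) naive-type cells. Ddit4 was 123.9 and 91.2 CPM there, a ratio of 0.44 (0.30 to 0.58), and was found in 32.7% and 25.4% of cells. Tsc22d3 was 233.5 and 243.0 CPM (-0.06, -0.15 to 0.03). None of the 6 reached 1.5-fold in naive-type cells, although Sgk1 lay just short of it and passed in 6 of 13 other settings (0.53 to 0.72). There 2.47% of 8950 genes were past it on the recipient side and 1.97% on the donor side. The Sgk1 ratio over all cells thus had the opposite sign to that in naive-type cells, the gate in which Sgk1 was lowest and of which the recipient held the larger share.

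The naive-type contrast was present with and without Ccr9 or Itgae, a split chosen after the values were seen. Cells with a UMI of either gene gave an Sgk1 ratio of 0.36 (0.04 to 0.69) and a Ddit4 ratio of 0.28 (0.08 to 0.48). Cells with none gave 0.73 (0.43 to 1.04) and 0.57 (0.37 to 0.77). The difference between the splits was not tested, and the intervals overlap for Sgk1 and for Ddit4.

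Outside the naive-type gate the same genes showed little contrast. In Ly6c2 cells all 6 intervals held 0, with Sgk1 at -0.06, Ddit4 at 0.06 and Tsc22d3 at 0.03, none past 1.5-fold against 3.15% and 2.42% of genes. In Cx3cr1 cells Sgk1 was 137.7 and 136.5 CPM (0.01, -0.27 to 0.29), and 3 members had the 50 UMIs needed, none past 1.5-fold against 4.16% and 2.27%. In Gzmk cells Tsc22d3 was 88.8 CPM (recipient) and 108.5 CPM (donor), with a ratio of -0.29 (-0.47 to -0.11).

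Klf9 was the 1 member past 1.5-fold in Gzmk cells, at 7.57 CPM (recipient) and 11.8 CPM (donor) (-0.65, -1.25 to -0.05), against 2.66% of genes higher and 1.69% lower in the recipient. It rests on 41 and 62 UMIs. In 10 of 13 other settings it was past 1.5-fold, but it was -0.33 with no doublets removed, -0.48 in cells with 5000 to 10000 UMIs and -0.51 with overlapping gates left out.

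**Figure D4:**
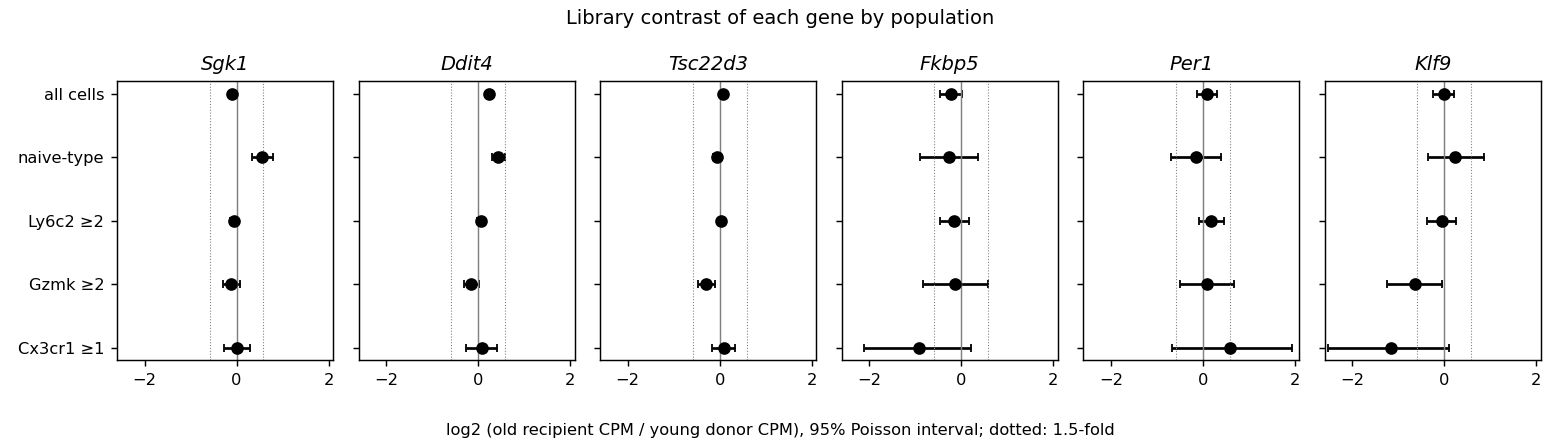
Log2 ratio of recipient over donor CPM (horizontal axis) of each gene over all cells and in the 4 gates, with 95% intervals, and dotted lines at 1.5-fold. Sgk1 at 0.56 and Ddit4 at 0.44 in naive-type cells stand above 0, while Tsc22d3 at -0.29 in Gzmk cells stands below it.

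The receptor gene Nr3c1 did not follow the same pattern. Over all cells it was 33.5 CPM (recipient) and 39.9 CPM (donor) (-0.25, -0.35 to -0.15), and it was 26.8 and 25.2 in naive-type cells (0.09, -0.19 to 0.38) and 37.2 and 42.4 in Ly6c2 cells (-0.19, -0.32 to -0.07). In Gzmk cells it was 39.9 and 37.2 CPM and in Cx3cr1 cells 51.9 and 40.5. The lower recipient level was thus seen in the Ly6c2 gate only, and gate shares differ between the libraries. By CPM, Nr3c1 was lowest in naive-type cells, the gate with the most Tsc22d3. Relative to the median gene, its Gzmk over naive-type ratio was 0.25 (-0.01 to 0.50) for recipient and 0.24 (-0.06 to 0.56) for donor cells. For Ly6c2 cells that ratio was 0.45 (0.25 to 0.64) and 0.70 (0.47 to 0.95), and for Cx3cr1 cells 0.59 (0.24 to 0.93) and 0.35 (-0.11 to 0.80). Whether Nr3c1 levels bear on Tsc22d3 was not tested. Of 14 receptor, chaperone and co-regulator genes none passed 1.5-fold over all cells, and their median ratio was -0.02. Their ends were Nr3c1 and the steroid reductase Hsd11b1 (-0.16) below, and the chaperone Fkbp4 (0.21) and the co-regulator Nrip1 (0.29) above.

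Other genes reported as glucocorticoid-induced were chosen by hand, with 19 of 24 reaching 50 UMIs. Of these, 4 were at least 1.5-fold higher in recipient cells and 0 lower. The shares over all genes were 4.34% and 2.77%, and the list's median ratio was 0.19 beside 0.04. Within gates the list's median was nearer to that of all genes. It was -0.0015 beside 0.02 in naive-type, 0.09 beside 0.01 in Ly6c2 and 0.09 beside 0.03 in Gzmk cells. There 2 of 17, 4 of 18 and 2 of 17 were higher, against 2.47%, 3.15% and 2.66% of all genes, and 0 lower. In Cx3cr1 cells 1 of 12 was higher and 1 lower (Dusp1, -1.21, -1.89 to -0.56), against 4.16% and 2.27%, with a median of 0.11 beside 0.03. The 4 higher over all cells were the chemokine receptor Cxcr4 (1.67, 14.5 and 4.56 CPM), Anxa1 (1.63), Btg2 (1.07) and Tgfbr3 (0.62). Errfi1 (-0.40) and Txnip (-0.30) were lowest. Cxcr4 and Btg2 were also higher within naive-type cells (2.38 and 1.22). Tgfbr3 was higher within Ly6c2 cells (0.66, 0.37 to 0.95). In naive-type and Gzmk cells Tgfbr3 was -0.25 and -0.38, with intervals that held 0. Immediate early genes gave 3 of 19 higher, Btg2, Egr2 (1.00) and Egr1 (0.84), and 1 lower, Hspa1a (-1.01, 13 and 40 UMIs), with Fosl2 (-0.26) and Ier3 (-0.06) next, and a median of 0.15. In naive-type cells 1 of 15 was higher and 1 lower, against 2.47% and 1.97% of all genes, and the median was 0.05. Egr2 (-1.20, -2.10 to -0.33) and Egr1 (-0.12, -0.45 to 0.22) had the opposite sign there. In Ly6c2 cells 5 of 18 were higher and 0 lower (all genes 3.15% and 2.42%), with Egr1 at 0.64 and Egr2 at 0.85. In Gzmk cells 2 of 13 were higher and 0 lower (2.66% and 1.69%), with Egr1 at 1.04 and Egr2 at 0.99. In Cx3cr1 cells 1 of 11 was higher and 2 lower (4.16% and 2.27%). The hypoxia list, which bears on Ddit4, gave 3 of 11 higher, Egln3 (2.03), Ndrg1 (1.13) and Bnip3 (0.62), with Kdm3a (-0.03) and Slc2a1 (-0.02) lowest and a median of 0.22. In naive-type cells 1 of 9 was higher (median 0.06) and in Ly6c2 cells 1 of 10 (median 0.21 beside 0.01 for all genes). In Gzmk cells 0 of 8 were higher (median 0.08) and in Cx3cr1 cells 0 of 6 (median 0.12). None of the list was lower in these gates. The shares of all genes that were higher there were 2.47%, 3.15%, 2.66% and 4.16% in the same order.

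The remaining lists lay nearer to the median gene over all cells, where 4.34% and 2.77% of all genes were higher and lower. Amino acid and unfolded protein stress genes gave 1 of 15 lower, the asparagine synthetase Asns (-0.78), and none higher, with Slc7a5 (-0.20) next, Xbp1 (0.25) and Eif2ak3 (0.29) highest and a median of 0.08. Asns was -1.31 (-2.01 to -0.66) in Ly6c2 cells, and its naive-type (0.60), Gzmk (-0.29) and Cx3cr1 (-1.33) intervals held 0. Clock genes, the partners of Per1, gave 2 of 14 higher, Arntl (0.64) and Per3 (0.59), and 1 lower, Nfil3 (-0.66, 17 and 41 UMIs), with Rora (0.52), Clock (-0.15) and Tef (-0.21) between and a median of 0.03. FOXO-linked genes, whose regulators SGK1 can phosphorylate, gave 1 of 16 higher, Gabarapl1 (1.45), with Sesn1 (0.45) and Btg1 (0.27) next, Il7r (-0.28) and Txnip lowest and a median of 0.09. Of 13 mTOR pathway genes, on which Ddit4 acts, none passed, from Rptor (-0.52) and Akt1 (-0.25) to Akt2 (0.10) and Mtor (0.16). Of 18 family relatives Per3 alone passed, with Sgk3 at 0.18, Klf2 at 0.17, Klf6 at -0.24 and Nedd4, a relative of the SGK1 substrate NEDD4L, at -0.52. Nedd4 was -0.53 (-0.71 to -0.35) in Ly6c2 cells, and its naive-type (0.29), Gzmk (-0.05) and Cx3cr1 (0.30) intervals held 0. Within gates some list medians lay farther from that of all genes, which was 0.03 in Gzmk and in Cx3cr1 cells. Clock genes stood at -0.16 in Gzmk and FOXO-linked genes at 0.20 in Cx3cr1 cells, while family relatives stood at -0.02 and 0.03.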

How the data were processed

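The deposited files hold raw UMI counts made by the authors. Cell Ranger, Seurat and mm10 are named per the submitters' processing notes, and software version 3.0.2 per the file headers. The annotation release is not given in the sources used here. Barcodes with under 500 genes or over 10% mitochondrial UMIs (555 recipient, 587 donor) were left out, as were the 278 and 550 with the highest doublet score against simulated doublets, at 0.8% per 1000 barcodes. UMIs of a gene were summed over cells and scaled to CPM. Exact 95% intervals are Poisson for CPM, binomial (Clopper-Pearson) for shares and conditional for ratios. Shares and r used cells thinned to 3500 UMIs, without 473 recipient and 441 donor cells under that depth. Counts of genes past 1.5-fold needed 50 UMIs, with a gene at 0 in a group taken at 3 UMIs. No test was made, since each group is a single library.

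The 6 genes and all gene lists were chosen with earlier results of these data known. Named were the 6, Nr3c1, the 5 genes of highest r with each of the 6, and in every list both ends (2 genes each, 200 UMIs or more) plus any past 1.5-fold. Further settings are given in the closing section, 24 listed at the outset and 4 chosen after seeing the data. Scripts were tested on simulated data. Python 3.11.15, numpy 2.4.6, scipy 1.17.1 and scikit-learn 1.9.0 were used, and edgeR 4.0.16 only for TMM factors.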

Additional observations from a re-analysis of the deposited data

Results flagged for a closer look

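Tsc22d3 had opposite library contrasts in populations that share no cell. It was lower in the recipient in Gzmk cells, with a log2 ratio of -0.29 (88.8 against 108.5 CPM), and higher in the recipient in cells of no gate, with a ratio of 0.29 (193.8 against 158.2 CPM). Both intervals lay away from 0. With 1 library per group, the difference between these contrasts was not tested.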

How the results depend on the processing

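No paired analysis was possible because each group had 1 library. Of 1158 values recomputed under other settings, 1032 stayed within the reported interval or tolerance, 121 moved and 5 changed sign; the causes were not tested unless the setting itself gives one. Library ratios stayed in 359 of 371 cases, and over 13 settings Sgk1 in naive-type cells ran from 0.53 to 0.72, Ddit4 there from 0.39 to 0.50 and Tsc22d3 in Gzmk cells from -0.40 to -0.13. The values below are log2 ratios. With totals that leave out large gene families, Gzmk over naive-type was 0.27 (recipient) and 0.96 (donor) for Sgk1, -0.68 and -0.072 for Ddit4 (the donor value changed sign) and -1.77 and -1.52 for Tsc22d3. Cx3cr1 over naive-type was then 0.92 and 1.49 for Sgk1, -0.73 and -0.34 for Ddit4 and -0.92 and -1.04 for Tsc22d3. With overlapping cells left out, Cx3cr1 over naive-type was 1.55 for Sgk1 (donor), 0.30 (recipient, changed sign) and -0.70 (donor) for Ddit4, 0.32 (recipient, changed sign) and -0.27 (donor) for Tsc22d3 and -0.27 (donor, changed sign) for Klf9. Gzmk over naive-type was then 0.39 (recipient) and 1.06 (donor) for Sgk1 and -1.61 (recipient) for Tsc22d3, and the library ratios in Cx3cr1 cells were 0.57, 1.44 and 0.53 for Sgk1, Ddit4 and Tsc22d3. In cells with 5000 to 10000 UMIs, Cx3cr1 over naive-type was 0.96 for Sgk1 (recipient), -1.12 for Tsc22d3 (donor) and -1.43 for Klf9 (donor, changed sign), Gzmk over naive-type was -0.0063 (recipient) and 0.52 (donor) for Ddit4, and the library ratios in Cx3cr1 cells were -0.29 for Sgk1 and 0.49 for Tsc22d3. With gates set on thinned cells, Tsc22d3 over naive-type was -0.47 (recipient) and -0.55 (donor) in Ly6c2, -1.38 (donor) in Gzmk and -0.90 (donor) in Cx3cr1 cells. Stricter gates gave -0.014 for Ddit4 in recipient Cx3cr1 over naive-type cells. Without the 3 most common Trbv segments Tsc22d3 there was -0.75, and with no doublets removed it was -1.25 in recipient Gzmk cells. The mean of each cell's CPM gave library ratios of -0.023 for Sgk1 over all cells, and 0.063 and 0.092 for Sgk1 and Tsc22d3 in Ly6c2 cells. TMM scaling gave 0.020 for Tsc22d3 over all cells. Within naive-type cells r of Ddit4 and Tsc22d3 was -0.085 in the recipient. Over all cells 484 genes were at least 1.5-fold higher and 309 lower in the recipient. At a lower fold threshold these were 1014 and 770, at 2-fold 190 and 111, and with at least 200 UMIs 213 and 139, while with at least 20 UMIs 755 were higher. Fkbp5, Per1 and Klf9 held under 20 UMIs each in the Cx3cr1 gate of either library, where no difference between the libraries was detectable.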
